A study of Mus musculus with 4 samples.

Results

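Prehypertrophic and hypertrophic chondrocytes are the cartilage cells that have left or are leaving the cell cycle on the way to endochondral bone. Here they were selected on their measured counts in 4 single-cell RNA libraries of presumptive knee joint cells from mouse embryos: a cell was a member when its summed unique molecular identifiers (UMIs) of Ihh, Panx3 and Col10a1 reached 2 or more and its Col2a1 UMIs reached 3 or more. Of 44320 kept cells, those with 200 to 6000 genes and at most 10% of UMIs from mitochondrial genes, 1995 met the rule. The members numbered 715, 272, 456 and 552 in the E13.5 control, the E14.5 control, the library labelled Glut1f/f;Glut3f/+ and that labelled DCKO. In the study, the glucose transporter genes Glut1 and Glut3 were targeted in limb mesenchyme, where Prx1Cre is active, to ask what glycolysis does in joint formation. Both controls carried no Cre; the mutants, at E14.5, were Prx1Cre;Glut1f/f;Glut3f/+ and Prx1Cre;Glut1f/f;Glut3f/f, the double conditional knockout (DCKO). Glut1 is the product of Slc2a1 and Glut3 that of Slc2a3. The sample titles name no Glut3 allele, so the genotype labels used here are those that the study gives. There was 1 library per condition, the number of embryos pooled into each was not stated in the labels.

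In the growing cartilage, round and then flat chondrocytes divide in columns, stop dividing, and enlarge. Prehypertrophic cells secrete Indian hedgehog (Ihh), which keeps neighbouring chondrocytes dividing and induces parathyroid hormone-related protein (Pthlh) near the joint; that ligand acts back through Pth1r to delay the step to hypertrophy. Hypertrophic cells make type X collagen (Col10a1), and Runx2, Runx3, Sp7, Mef2c and Foxa factors drive the genes of both steps.

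All values below are given in the order E13.5 control, E14.5 control, library labelled Glut1f/f;Glut3f/+ and library labelled DCKO unless a library is named. The libraries held 100344565, 84188147, 97110697 and 91574038 UMIs in 12769, 9707, 11690 and 11602 barcodes. The members held 8648886, 5121721, 8461114 and 9220277 UMIs, with medians of 10895, 17899.5, 18059 and 15203 UMIs and 3353, 4014.5, 3949.5 and 3523.5 genes per cell. They were deeper than the cells they were set against, the kept cells with 3 or more Col2a1 UMIs and none of the 3 other rule genes (other Col2a1 cells), of which there were 4704, 5771, 6341 and 7472 with medians of 6945, 7781, 7504 and 6830 UMIs. Levels are counts per 1000000 UMIs (CPM), taken over the summed UMIs of a group of cells in a library. Intervals are exact 95% intervals for counting error alone, since cells of 1 library are not replicates, and no comparison between libraries could be tested. Pairs of libraries shared 25 to 40 cell barcodes, and no barcode was shared between members.

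The sex of the embryos differed with genotype. Xist was detected in 77.2, 0.368, 99.1 and 98.2% of members and a Y-linked gene in 22.7, 89.3, 0.219 and 0%. The E14.5 control members were thus nearly all male, those of both libraries labelled as mutant nearly all female, and those of the E13.5 control of both sexes, so sex and genotype cannot be told apart at E14.5.

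The deleted genes were read first. Slc2a1, which encodes the main glucose transporter of chondrocytes, stood at 113, 101, 489.9 and 604 CPM in members, from 978, 519, 4145 and 5568 UMIs. It went against the genotype labels: both libraries labelled as deleted for it had more Slc2a1 UMIs than either control, with log2 ratios to the E14.5 control of 2.27 (2.14 to 2.41) and 2.57 (2.45 to 2.71). In other Col2a1 cells, too, both stood above the controls, at 55.3, 72.7, 417 and 451 CPM. These are tags from the 3′ end of the transcript, and which exons were floxed was not given in the labels, so a tag outside the deleted part neither shows nor disproves the deletion; genotypes are therefore given as labelled throughout. Slc2a3, the other deleted transporter gene, was near the floor, with 34, 7, 17 and 7 UMIs in members, or 3.93, 1.37, 2.01 and 0.759 CPM. Its log2 ratio to the E14.5 control was 0.50 (-0.79 to 2.07) in the library labelled Glut1f/f;Glut3f/+ and -0.85 (-2.59 to 0.89) in the library labelled DCKO, so no difference was detectable at this depth.

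The label was checked against its 5 markers. Ihh stood at 482, 183, 198 and 189.7 CPM in members, Panx3, a channel protein of prehypertrophic cells, at 222, 198, 232 and 161 CPM, and Col10a1 at 21.2, 5.86, 125 and 72.2 CPM; these genes chose the cells and are given as a description only. The other 2 markers were not used by the rule. Smpd3, a sphingomyelinase needed for normal hypertrophy and mineralization, had a UMI in 55.1, 59.6, 57.5 and 51.3% of members against 0.680, 0.884, 0.899 and 0.790% of other Col2a1 cells. Scin, an actin-severing protein, had one in 55.8, 69.1, 72.1 and 69.7% against 3.76, 13.7, 10.4 and 13.4%. Both markers were thus present in 51.3% or more of the members of every library, although members were also the deeper cells. Late hypertrophic products were scarce: Mmp13, the collagenase of terminal cells, had 0, 0, 1 and 0 UMIs, and Col10a1 was found in 96, 12, 94 and 85 members, so most members had no Col10a1 UMI. The genes lie in GENCODE M21 (GRCm38/mm10) at chromosome 1, 74945315 to 74951672 (Ihh), chromosome 9, 37659902 to 37669235 (Panx3), chromosome 10, 34389981 to 34397085 (Col10a1), chromosome 8, 106252548 to 106337988 (Smpd3) and chromosome 12, 40059769 to 40134228 (Scin).

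For Smpd3, Pth1r and Gas1, cells just inside the threshold, with 2 UMIs of the rule genes, were nearer by ratio to those just outside it, with 1, than to members with 3 or more. There were 335, 367, 384 and 542 cells just outside and 133, 77, 135 and 173 just inside. Smpd3 stood at 13.3, 7.99, 17.7 and 5.63 CPM outside, 25.1, 32.0, 20.9 and 23.5 CPM inside, and 205, 205, 348 and 213 CPM in members with 3 or more UMIs. For Pth1r the values were 116, 56.3, 77.9 and 86.3 CPM outside, 175, 77.2, 103 and 131 inside, and 410.2, 201, 339 and 323 further in. Gas1, low in members, went the other way, from 153, 65.1, 40.2 and 24.8 CPM outside to 82.5, 46.8, 33.9 and 14.7 inside and 40.3, 12.8, 12.8 and 5.66 further in. Scin stood at 52.2, 71.0, 62.0 and 67.7 CPM outside, 52.3, 72.3, 78.5 and 80.4 inside and 115, 123, 122 and 105 further in, so in both controls it was level across the threshold itself. The rule was also met by 10, 1, 3 and 0 of 546, 184, 262 and 65 muscle cells (median 10481, 13802.5, 12950.5 and 10436 UMIs), or 1.83, 0.543, 1.15 and 0%; the E13.5 share, from the largest of these classes, was 1.83% (0.882 to 3.34) beside 5.74% of all kept cells, at a median depth near that of members. It was met by 0, 1, 0 and 0 of 57, 31, 65 and 72 endothelial cells and 0, 1, 0 and 0 of 24, 44, 58 and 38 macrophages. In the E14.5 control these single cells were 3.23% (0.0816 to 16.7) and 2.27% (0.0575 to 12.02) of their class, beside 2.92% of all kept cells, with too few cells to set the shares apart.

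Members were most frequent in the E13.5 control and least frequent in the E14.5 control. They made up 5.74% (5.34 to 6.17), 2.92% (2.59 to 3.29), 4.05% (3.69 to 4.43) and 4.88% (4.49 to 5.30) of kept cells; with 1 UMI of the rule genes as the minimum, the library labelled DCKO passed the E13.5 control, at 9.68% against 8.44%. The rule counts UMIs, so each cell was also thinned to 3000 UMIs and cells under that depth were left out; the expected shares were then 3.57, 0.908, 1.53 and 1.63%, against 6.50, 3.16, 4.50 and 5.53% for the same cells at full depth. At equal depth the E14.5 control share was 0.254 times that of the E13.5 control, and the libraries labelled Glut1f/f;Glut3f/+ and DCKO had 1.69 and 1.80 times the share of the E14.5 control. Col2a1 cells as a whole took 46.2, 68.9, 63.8 and 75.8% of kept cells, and members were 12.4, 4.24, 6.35 and 6.44% of them. With either denominator the order at E14.5 was the same, but the libraries labelled as mutant were nearly level with each other once Col2a1 cells or equal depth were used, at ratios of 1.01 and 1.07.

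**Figure D1:**
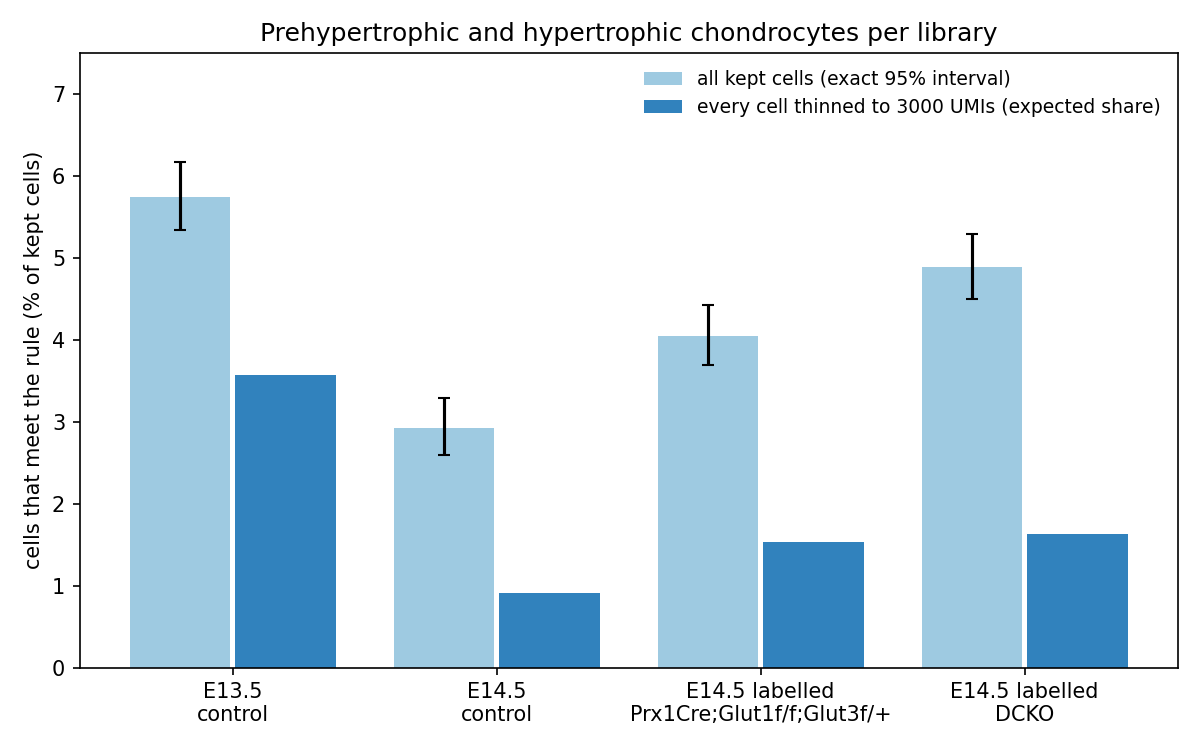
Cells that met the rule as a percentage of kept cells (vertical axis) in each library, at full depth (light bars, with exact 95% intervals) and as the share expected after every cell was thinned to 3000 UMIs (dark bars). The E13.5 control is highest and the E14.5 control lowest by both measures, at 5.74% and 2.92% at full depth.

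Members were next compared with other Col2a1 cells of the same library, a comparison of cells chosen by their counts that is given as a description. Of 12318 genes with 50 or more UMIs over both sums in every library, 160 (1.3%) were at least 2-fold higher in members in each of the 4 libraries and 564 (4.58%) at least 2-fold lower. The lower count was 163 against matrix-rich cells, defined below, and 341 with a prior count of 5. The higher count did not move by over 1.5 times in these settings. The median gene stood at log2 ratios of -0.13, -0.18, -0.13 and -0.23, and TMM scaling moved these medians to -0.03, -0.06, -0.04 and -0.05, so a ratio is best read against its library's median. Of 18 tested genes of the 22 listed for the prehypertrophic and hypertrophic program beyond the rule genes, 10 were at least 2-fold higher in each of the 4 libraries and none lower, and the list medians were 2.44, 1.86, 1.92 and 1.21. The 10 were Smpd3, Scin, Runx2, Sp7, Mef2c, Dlx6, Foxa3, Fgfr3, Pth1r and Slc8a3.

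Several transcription factors of the program were among them. Runx2, the factor that opens the hypertrophic program, stood at 154, 66.4, 76.5 and 47.9 CPM in members, with log2 ratios to other Col2a1 cells of 1.32, 1.98, 2.01 and 1.09. Sp7, which acts downstream of Runx2, stood at 62.8, 26.4, 32.7 and 17.9 CPM, with log2 ratios of 3.18, 3.80, 4.21 and 2.92. Mef2c, which drives Col10a1 and Runx2 expression, stood at 681, 304, 442 and 271 CPM, with ratios of 2.89, 1.86, 1.92 and 1.33. All 3 factors were highest in the E13.5 control and lowest in the library labelled DCKO. Runx3 stood at 158, 124, 89.1 and 40.02 CPM and Dlx5, a homeobox factor of maturing chondrocytes, at 132, 46.9, 45.3 and 22.0 CPM, both in falling order from the E13.5 control to the library labelled DCKO. Runx3 and Dlx5 were not among the 10, with ratios of 1.60, 2.23, 1.84 and 0.61 and 2.11, 2.36, 2.17 and 0.90, under 2-fold in the library labelled DCKO. Fgfr3, the receptor that slows chondrocyte division, was more even, at 161, 188, 245 and 201 CPM. Among the chondrocyte factors Sox9, Sox5, Sox6 and others, 1 of 9 tested genes, Zbtb20, was at least 2-fold higher in each library and 1, Hoxd11, lower; the list medians were -0.27, -0.28, -0.32 and -0.56.

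Apart from the rule genes, the largest differences common to the 4 libraries, among genes at 30 CPM or more, included Smpd3, Sgms2, Pltp, Prkg2, Pth1r and matrix genes. Smpd3 stood at 177, 164, 265 and 161 CPM in members and 1.07, 1.26, 1.11 and 1.23 CPM in other Col2a1 cells, log2 ratios of 7.35, 7.01, 7.89 and 7.02. Sgms2, which makes the sphingomyelin that Smpd3 cleaves, stood at 156, 100.4, 151 and 74.7 CPM, with ratios of 4.25, 2.99, 3.66 and 2.37. Pltp, a phospholipid transfer protein, stood at 108, 39.4, 79.5 and 53.1 CPM, with ratios of 4.37, 3.12, 3.78 and 3.05. Scd1, a fatty acid desaturase, was also named, with ratios of 2.31, 2.74, 2.63 and 2.18. Prkg2, the cGMP-dependent kinase that is needed for the step to hypertrophy, stood at 95.4, 73.2, 85.1 and 80.9 CPM, with ratios of 3.98, 3.38, 3.17 and 2.86. Pth1r, the receptor for the Pthlh ligand, stood at 373, 172, 279 and 271 CPM against 63.2, 41.6, 42.1 and 47.4 CPM, with ratios of 2.56, 2.05, 2.73 and 2.51. Its ligand was on the other side: Pthlh stood at 1.97, 1.17, 1.06 and 1.30 CPM in members and 18.1, 18.01, 15.4 and 13.4 CPM in other Col2a1 cells. Tnni1, a slow-muscle troponin subunit, stood at 39.5, 42.8, 86.3 and 241 CPM, with ratios of 2.55, 2.98, 3.52 and 3.84. Tnni1 was highest in the library labelled DCKO in members as in other Col2a1 cells, where it stood at 6.75, 5.41, 7.52 and 16.9 CPM.

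**Figure D2:**
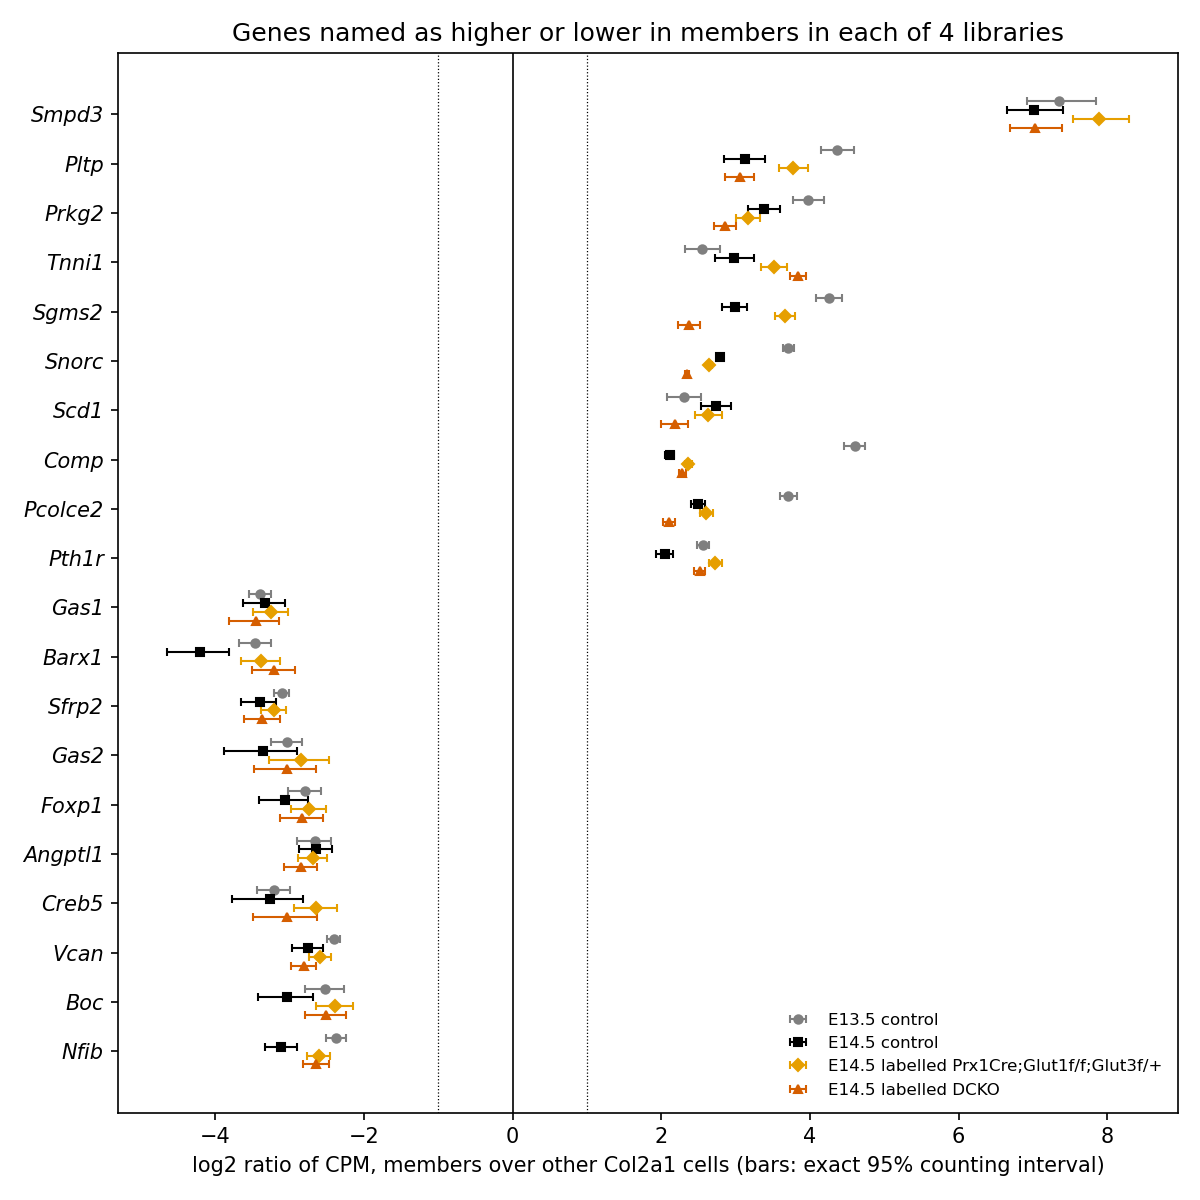
Log2 ratio of CPM in members over other Col2a1 cells (horizontal axis) for the 10 named higher and 10 named lower genes, 1 point per library with its exact 95% counting interval; dotted lines mark 2-fold. Smpd3 lies farthest to the right, between 7.01 and 7.89, and Gas1 between -3.46 and -3.25 on the left.

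Several cartilage matrix genes were higher in members, and more of them at E13.5, where 16 of 19 passed 2-fold against 8, 8 and 7 of 20 in the E14.5 libraries. The share of all genes past 2-fold in a single library is not given here. The medians of all genes were -0.13, -0.18, -0.13 and -0.23. Of 19 genes tested in all 4 libraries, 6 were at least 2-fold higher in each library (Acan, Comp, Epyc, Hapln1, Pcolce2 and Snorc) and 1, Fmod, lower; the list medians were 1.95, 0.75, 0.87 and 0.67. Snorc, a membrane proteoglycan of chondrocytes, stood at 780.4, 3026, 1883 and 1840.3 CPM in members, with ratios of 3.71, 2.79, 2.65 and 2.34. Comp, an oligomeric matrix protein, stood at 306, 661, 752 and 712 CPM, with ratios of 4.60, 2.11, 2.36 and 2.28, and Pcolce2, an enhancer of procollagen processing, at 260.5, 289, 244 and 237 CPM, with ratios of 3.71, 2.49, 2.60 and 2.11. Each of the 3 had its largest ratio at E13.5, where the other Col2a1 cells expressed less cartilage matrix: Snorc stood there at 59.6 CPM, against 438, 300.5 and 363 CPM in the E14.5 libraries. Matrix-rich cells have 10 or more UMIs of Matn1, Acan and Col9a1, no Gdf5 and none of the rule genes. Against them alone, the hypertrophic program medians were 2.22, 1.72, 1.87 and 1.501 and the cartilage matrix medians were 0.64, 0.37, 0.50 and 0.44. The lower medians of the cartilage matrix list are partly built in, since these cells were chosen on genes of that list.

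Several genes of hedgehog reception were lower in the members, which were chosen in part on Ihh itself. Of 16 genes of the Ihh and Pthlh loop, 1, Pth1r, was at least 2-fold higher in each library and 5 lower: the co-receptors Gas1, Boc and Cdon, the repressor Gli3, and Pthlh. Gas1 stood at 46.9, 20.9, 18.2 and 8.13 CPM in members and 495, 212, 173 and 89.9 CPM in other Col2a1 cells, log2 ratios of -3.40, -3.34, -3.25 and -3.46. Boc had ratios of -2.52, -3.03, -2.39 and -2.51. The response gene Ptch1, which encodes the receptor itself, was not 2-fold different in every library, at 359, 186, 172 and 83.8 CPM in members and 166, 109, 111 and 93.8 CPM in other Col2a1 cells.

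Genes of joint and connective tissue were among the lower ones. Of 8 interzone genes 6 (Gdf5, Osr1, Osr2, Sfrp2, Creb5 and Wnt9a) were at least 2-fold lower in each library, with list medians of -2.71, -2.40, -2.29 and -2.09. Sfrp2, a secreted Wnt modulator, had ratios of -3.10, -3.40, -3.21 and -3.37 and Creb5, a factor of joint-surface cells, -3.21, -3.26, -2.64 and -3.03. Against matrix-rich cells alone, the ratios nearest 0 of Sfrp2 and Creb5 were -0.55 and -0.996, against -3.10 and -2.64 with all other Col2a1 cells. The 8 interzone genes summed to 251, 246, 219 and 144 CPM in members and 367, 225, 258 and 205 CPM in matrix-rich cells. In other Col2a1 cells they summed to 1545, 620, 623 and 346 CPM. Matrix-rich cells were chosen without Gdf5. Fibroblast genes were lower in 3 of 6 (Col3a1, Col14a1 and Pdgfra), with medians of -1.33, -1.78, -1.78 and -2.04, and tendon genes in 2 of 3 (Scx and Mkx), with medians of -1.98, -3.23, -2.95 and -2.85; with Tnmd and Kera set to their bounds where members had 0 UMIs, the medians of the E14.5 libraries were -2.18, -1.76 and -2.85. Other named lower genes were the homeobox gene Barx1, with ratios of -3.46, -4.20, -3.38 and -3.21; the forkhead gene Foxp1, with -2.79, -3.06, -2.74 and -2.83; and Nfib, a nuclear factor I gene, with -2.37, -3.11, -2.60 and -2.64. The matrix proteoglycan Vcan, which early mesenchyme makes, had ratios of -2.41, -2.75, -2.59 and -2.81, the secreted protein Angptl1 -2.66, -2.65, -2.69 and -2.84, and Gas2, a cytoskeletal linker, -3.04, -3.35, -2.84 and -3.03.

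The remaining lists had fewer genes past 2-fold in each library. For osteogenic and perichondrial genes 2 of 7, Runx2 and Sp7, were at least 2-fold higher in each library, and the medians of 0.10, -1.39, 1.60 and 0.65 changed sign between libraries; that of the E14.5 control turned to 0.26 against matrix-rich cells. Mineral and phosphate genes had 1 of 9, Smpd3, higher in each library (medians 0.23, 0.35, 0.81 and 0.58), ATF4 targets 1 of 17, Chac1 (medians 0.19, 0.37, 1.20 and 0.93), and unfolded protein response genes 1 of 18, Sdf2l1 (medians 0.34, 0.26, 0.51 and 0.53). Glycolytic enzymes had 1 of 16, Aldoc, with medians of 0.09, 0.13, 0.13 and 0.19, that of the library labelled DCKO turning to -0.034 with cells of 4000 to 20000 UMIs only, and glucose transporters 1 of 7, Slc2a13, with medians of -0.23, -0.29, 0.04 and 0.18. No hypoxia gene of 21 was 2-fold different in each library (medians -0.10, -0.36, -0.05 and -0.37), and none of 10 immediate-early genes (medians -0.85, 0.15, -0.63 and -0.81) or 13 mitochondrial genome genes (medians -0.13, 0.05, -0.08 and -0.21). Bmp and Tgfb genes had 2 of 24 lower in each library, the ligand Bmp5 and the antagonist Grem1, and medians of -0.11, 0.21, 0.22 and -0.28. Osteogenic cells of the same libraries, which numbered 318, 69, 126 and 71, were chosen on 2 or more Runx2 and Sp7 UMIs, 3 or more Col1a1 UMIs, fewer than 3 Col2a1 UMIs and fewer than 2 of the rule genes. Members had higher cartilage matrix, with medians of 5.23, 5.26, 4.73 and 5.18, a difference largely built in, since the groups were split on Col2a1. ATF4 targets had medians of 0.49, 0.65, 2.50 and 2.66 and glycolytic enzymes of 0.86, 1.16, 1.24 and 1.56, beside all-gene medians of -0.14, -0.01, -0.06 and -0.25.

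Within the members, the rule genes set out an order from prehypertrophic to hypertrophic. Ihh without Col10a1 was found in 599, 219, 299 and 425 members, Ihh with Col10a1 in 95, 12, 89 and 76, Col10a1 without Ihh in 1, 0, 5 and 9, and neither, with Panx3 alone, in 20, 41, 63 and 42. Cells with 10 or more Col10a1 UMIs, a threshold chosen after the values were seen, numbered 0, 1, 20 and 18. In both libraries labelled as mutant these few cells held most of the Col10a1, 80.6% and 75.5% of the members' UMIs, so the Col10a1 level of a library rests on 20 and 18 cells there.

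Several genes that the split did not use rose along the order, though not all did so in the E14.5 control. The order is not separate from the selection, since the split counts a rule gene. Smpd3, Scin and Pth1r also stood higher in members with 3 or more rule-gene UMIs than in those with 2. How much of the rise goes with the rule-gene count alone was not tested. Smpd3 rose from 148, 175, 159 and 124 CPM in members with Ihh and no Col10a1 to 357, 378, 526 and 311 CPM in those with 1 to 9 Col10a1 UMIs, and was 579 and 692 CPM in the cells with 10 or more in both libraries labelled as mutant. Pth1r went from 331, 179, 204 and 220.3 CPM to 628, 305, 468 and 456 CPM and then 859 and 1034 CPM. Scin went from 97.3, 115, 96.3 and 89.5 CPM to 154, 159, 152 and 129 CPM and then 225 and 204 CPM. All 3 genes stood higher at each later step in every library with 10 or more cells at that step. The matrix gene Hapln1, which links hyaluronan to proteoglycan, went from 1336, 1627, 1428 and 1223 CPM to 2324, 2331, 2370.3 and 1712 CPM and 3787 and 2986 CPM; Comp went from 272, 658, 585 and 627 CPM to 503, 993, 1234 and 1133 CPM and 1482 and 1377 CPM. Sgms2 went from 124, 99.6, 85.1 and 49.6 CPM to 348, 282, 322 and 143 CPM and 549 and 501 CPM, and Prkg2 from 84.0, 78.6, 69.2 and 71.4 CPM to 172, 105, 138 and 136 CPM and 211 and 200.4 CPM. Zbtb20, a repressor of Sox9 in hypertrophy, went from 54.8, 81.7, 69.03 and 58.4 CPM to 117, 159, 151 and 125 CPM and 189 and 171 CPM. These genes, too, stood higher at each later step. Spp1, the mineral-binding protein osteopontin, went from 8.92, 103, 52.8 and 9.97 CPM to 46.2, 105, 344 and 33.3 CPM and 716 and 213 CPM, with the E14.5 control nearly flat between the first steps and the library labelled Glut1f/f;Glut3f/+ highest at each Col10a1 step. Cdkn1a, which encodes the cell cycle inhibitor p21 and was picked after its values were seen, went from 78.5, 128, 160.2 and 194 CPM to 219, 123, 578 and 376 CPM and 1057 and 643 CPM, with no rise in the E14.5 control.

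Mki67 and Top2a, genes of dividing cells, mostly went the other way. Mki67 stood at 109, 136, 103 and 51.0 CPM in members with Ihh and no Col10a1, at 43.0, 77.4, 55.996 and 31.6 CPM with 1 to 9 Col10a1 UMIs, and at 32.9 and 25.9 CPM with 10 or more. Top2a, a topoisomerase, stood at 228, 270.5, 206 and 109 CPM, 81.2, 319, 136 and 69.3 CPM and 30.2 and 29.1 CPM, and did not fall in the 11 cells of the E14.5 control with 1 to 9 Col10a1 UMIs. Ptch1, the hedgehog receptor, stood at 372, 186, 170.3 and 85.8 CPM, 288, 219, 169 and 63.2 CPM and 85.1 and 45.2 CPM, with a rise in the E14.5 control. The library labelled DCKO was lowest for all 3 genes at each step where it could be compared. At the last step, with 20 and 18 cells, Top2a was nearly level between the libraries labelled as mutant, at 30.2 and 29.1 CPM. Mki67, at 32.9 and 25.9 CPM, also rests on few cells there.

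**Figure D3:**
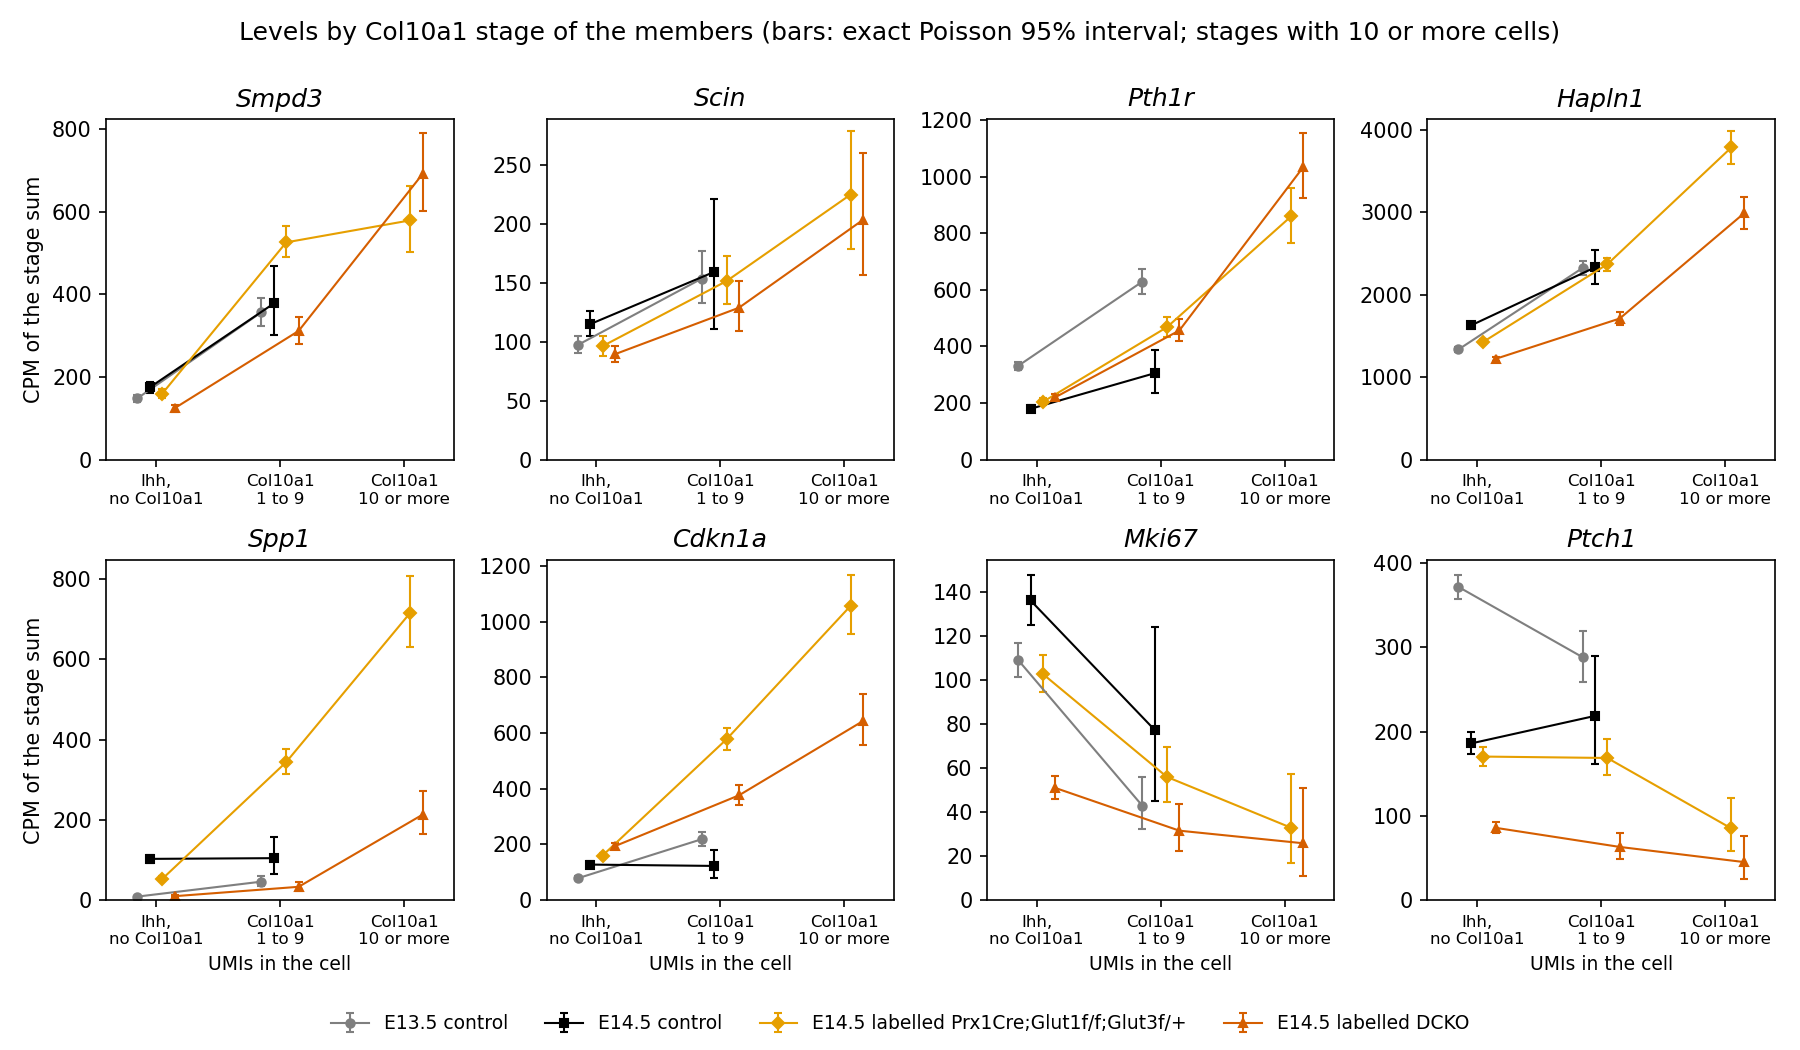
CPM of 8 genes (vertical axes) in members split by their Col10a1 UMIs (horizontal axes), 1 line per library, with exact Poisson 95% intervals; stages with fewer than 10 cells are not drawn. Smpd3, Scin, Pth1r and Hapln1 rise to the right in every library, and Mki67 falls, from 103 to 32.9 CPM in the library labelled Glut1f/f;Glut3f/+.

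A few members carried genes of mineralizing cells. Ibsp, bone sialoprotein, stood at 14.45, 0.586, 316 and 17.6 CPM in members, from 125, 3, 2670 and 162 UMIs. Members with 10 or more Ibsp UMIs, a threshold chosen after the values were seen, numbered 2, 0, 6 and 3, and they held 69.6%, 98.5% and 77.8% of the Ibsp UMIs of the 3 libraries that had such cells. The Ibsp level of the library labelled Glut1f/f;Glut3f/+ thus rests on 6 cells, of which 1 also had 10 or more Col10a1 UMIs. In the E13.5 control, the library labelled Glut1f/f;Glut3f/+ and the library labelled DCKO, these cells had Ifitm5, a membrane protein of bone-forming cells, at 1323, 3408 and 353 CPM and Smpd3 at 441, 3099 and 565 CPM. They had Acan at 0, 145 and 799.9 CPM and Col2a1 at 2679, 2490.0 and 10493 CPM, so both genes were higher in those of the library labelled DCKO than in those of the other libraries. No Mki67 UMI was found in them. The stage that held most of the members' Ibsp UMIs differed between the 3 libraries. In the E13.5 control, 83.2% lay in members with Ihh and no Col10a1. In the library labelled Glut1f/f;Glut3f/+ 80.5% lay in members with Panx3 alone, and in that labelled DCKO 87.7% in members with Ihh and Col10a1.

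Cell cycle genes as a list were not 2-fold different between members and other Col2a1 cells in each library: none of 20 passed, and the medians were -0.64, 0.03, -0.29 and -0.65, or -0.93, -0.75, -0.97 and -1.11 with cells of 4000 to 20000 UMIs only. Members with 3 or more UMIs of the list made up 78.3, 90.1, 77.2 and 70.8%, and 46.3, 54.2, 41.1 and 30.002% once each cell was thinned to 3000 UMIs. In other Col2a1 cells the shares were 83.0, 67.4, 64.2 and 61.1% and, thinned, 67.2, 43.0, 40.004 and 39.96%. Once thinned, members held fewer such cells than other Col2a1 cells in the E13.5 control and in the library labelled DCKO. They held more in the E14.5 control, and the share was nearly level in the library labelled Glut1f/f;Glut3f/+. Members were still chosen at full depth. In the E14.5 control the list median with cells of 4000 to 20000 UMIs, -0.75, went the other way, so the direction there depends on the measure. Among members, the E14.5 control had the largest share and the library labelled DCKO the smallest. Free RNA gives such UMIs too, and no cycling is read from them.

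Between the controls, many cartilage matrix genes were higher in members of the E14.5 library than in those of the E13.5 library, and many genes of the hypertrophic program lower. Of 10151 tested genes, 250 (2.46%) were at least 2-fold higher at E14.5 and 690 (6.8%) lower. The median gene was at -0.17, which TMM scaling moved to 0.01, with 351 genes then higher and 501 lower; list medians here and below are to be read against the median of all genes in the same comparison. Of the hypertrophic program, 2 of 19 were higher and 10 lower (median -1.04, against -0.14 in other Col2a1 cells). The lower genes included Alpl, the phosphatase of mineralization, at 8.90 and 1.95 CPM; Runx2 (-1.21), Sp7 (-1.25), Dlx5 (-1.49) and Mef2c (-1.16) on the log2 scale; and Pth1r (-1.12). Smpd3, at -0.11, and Scin, at 0.08, were within 2-fold. The members of the E14.5 control were deeper, at a median of 17899.5 UMIs against 10895 in the E13.5 control. Just 2 rule-gene UMIs were found in 77 of its 272 members, against 133 of 715. The part of depth and of cells at the threshold in these ratios was not told apart. Ihh went from 482 to 183 CPM, but it chose the members and is given as a description only.

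Of the lists, cartilage matrix had the most genes on the higher side. Of 19 cartilage matrix genes 10 were higher and none lower (median 1.01, and 2.01 in other Col2a1 cells). Among them Ucma, a matrix protein of resting cartilage, had a log2 ratio of 3.98, and Epyc, a small proteoglycan, 2.20. C1qtnf3, a secreted protein of cartilage, went from 34.9 to 758 CPM, and Scrg1, a secreted protein of chondrocytes, from 13.1 to 192 CPM, log2 ratios of 4.44 and 3.87. Fam180a (3.37), the EGF receptor inhibitor Errfi1 (3.13) and the calcium-binding protein S100b (2.82) complete the 5 largest rises among genes at 50 CPM or more in the higher library. Of 10 immediate-early genes, which tissue dissociation can induce, 6 were higher (median 1.38, and 0.23 in other Col2a1 cells); how far handling contributed was not tested.

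The 5 largest falls at that level included a pair of secreted peptides. Uts2b, the urotensin 2B peptide, had 645 UMIs (74.6 CPM) in E13.5 control members and 0 in those of the E14.5 control, at least 127-fold lower against a floor of 3 counts, and 7 and 0 UMIs in the libraries labelled Glut1f/f;Glut3f/+ and DCKO. Ostn, the peptide osteocrin, which competes for a clearance receptor of natriuretic peptides, stood at 55.04, 1.17, 31.6 and 76.7 CPM, so that the E14.5 control, at a log2 ratio of -5.44 to the E13.5 control, was low beside all 3 other libraries. Nnat, neuronatin, stood at 148, 9.37, 12.5 and 7.92 CPM (-3.97), Fxyd7, a subunit of the sodium pump, at 59.5, 5.27, 10.5 and 5.10 CPM (-3.47), and the limb patterning factor Hand2 at 60.4, 6.83, 9.57 and 6.51 CPM (-3.12). Osteogenic genes were lower in 4 of 8 and higher in 1 (median -0.97), interzone genes lower in 3 of 7 and higher in 1 (median -0.74) and hedgehog loop genes in 2 of 12 (median -0.44). Using only E13.5 members with a Y-linked UMI and no Xist UMI left fewer cells and genes to test. At E14.5, 390 genes in place of 690 were then lower and 291 in place of 250 higher, and the interzone median was 0.28. ATF4 targets were higher in 3 of 16 between the controls (median 0.51), turning to -0.035 when members were chosen after 1 draw of 3000 UMIs. Of the cell cycle list none of 20 passed (median 0.22), and the median turned to -0.34 with cells of 4000 to 20000 UMIs only.

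The libraries labelled as mutant were each compared with the E14.5 control; both comparisons share that library, which held the fewest members, and each is given by its own values. In the library labelled Glut1f/f;Glut3f/+, 193 of 9849 tested genes (1.96%) were at least 2-fold higher and 112 (1.14%) lower. For the library labelled DCKO, 275 of 9746 (2.82%) were higher and 571 (5.86%) lower. The medians of all genes were -0.06 and -0.19; under TMM scaling they were 0.00 and 0.02, and the counts became 213 higher with 95 lower, and 367 higher with 357 lower.

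Of the lists, genes of the amino acid and stress response that ATF4 controls had the most genes on the higher side. In the library labelled Glut1f/f;Glut3f/+ 9 of 17 were higher (median 1.11, and 0.53 in other Col2a1 cells), and in the library labelled DCKO 14 of 18 (median 1.54, and 1.19); none was lower. Nupr1, a small stress-induced nuclear protein, stood at 13.8, 10.7, 241 and 569 CPM, log2 ratios of 4.47 and 5.71. Asns, asparagine synthetase, stood at 45.1, 68.5, 237 and 359 CPM (1.79 and 2.39), and Atf5, a factor of the same response, at 23.1, 24.2, 101 and 185 CPM (2.05 and 2.93). Slc7a5, an importer of large neutral amino acids, stood at 10.2, 17.0, 52.1 and 71.1 CPM (1.61 and 2.06). In each of these genes both controls were below both libraries labelled as mutant, and the library labelled DCKO was the highest. The 8 named rises also include Slc2a1, given above; of the others, Eif4ebp1, a brake on translation, stood at 87.1, 137, 449 and 662 CPM, Serpinf1, an antiangiogenic serpin, at 43.1, 26.2, 94.8 and 203 CPM, and the metallothionein Mt1 at 3.58, 36.9, 262 and 205 CPM. Their log2 ratios were 1.71 and 2.27, 1.85 and 2.95, and 2.83 and 2.47. Mt1 differed in order, being higher in the library labelled Glut1f/f;Glut3f/+ than in that labelled DCKO.

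More genes of the unfolded protein response were higher in the library labelled DCKO than in that labelled Glut1f/f;Glut3f/+. There 9 of 18 were at least 2-fold higher (median 0.95, and 0.35 in other Col2a1 cells), against 3 of 18 in the library labelled Glut1f/f;Glut3f/+ (median 0.25). Hspa5, the main chaperone of the endoplasmic reticulum, stood at 936, 929.6, 1368 and 2233 CPM, and Sdf2l1, a cofactor there, at 67.5, 58.8, 119 and 297 CPM. Creb3l1, a membrane-bound factor of secretory cells, stood at 8.56, 4.10, 16.1 and 19.5 CPM, a log2 ratio of 2.22 in the library labelled DCKO.

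With cells of all depths, most genes of the cell cycle list were at least 2-fold lower in the library labelled DCKO. There 14 of 20 were at least 2-fold lower and none higher (median -1.15, and -0.29 in other Col2a1 cells), and in the library labelled Glut1f/f;Glut3f/+ none of 20 passed (median -0.63, and -0.25). Top2a stood at 205, 273, 181 and 103 CPM and Mki67 at 98.4, 132, 88.3 and 49.9 CPM, each lowest in the library labelled DCKO. The linker histone genes Hist1h1b, Hist1h1e and Hist1h1c were among the 8 named falls, at 232, 353, 119 and 74.4 CPM, 71.8, 127, 45.9 and 30.5 CPM and 27.2, 57.4, 20.2 and 19.6 CPM. Hist1h1b had log2 ratios of -1.57 and -2.25; with cells of 4000 to 20000 UMIs only, its ratio in the library labelled Glut1f/f;Glut3f/+ was -0.88. The members of the E14.5 control were deep and had the largest share of cells with cell cycle UMIs. With cells of 4000 to 20000 UMIs only, the list medians were -0.65 in the library labelled DCKO and -0.49 in that labelled Glut1f/f;Glut3f/+. Both were nearer 0 than with all depths and short of 2-fold. At that setting no majority of the list was 2-fold lower in the library labelled DCKO.

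The other named falls included matrix-associated signals and the transcription factor Jun. Ccn2, connective tissue growth factor, stood at 126, 111, 29.7 and 22.0 CPM (-1.91 and -2.34), and Ccn1, of the same family, at 194, 448, 159 and 111 CPM (-1.49 and -2.01). C1qtnf3 stood at 34.9, 758, 195 and 61.3 CPM (-1.96 and -3.63). Snhg3, a host gene of small nucleolar RNAs, stood at 46.1, 55.8, 9.69 and 8.89 CPM (-2.52 and -2.64). Jun stood at 327, 989.9, 356 and 353 CPM (-1.47 and -1.49), highest in the E14.5 control and alike in the other 3 libraries; Ccn1 was also highest there. Snhg3 and Ccn2 were instead alike in both controls and lower in both libraries labelled as mutant. Of 10 immediate-early genes 4 were lower in the library labelled DCKO (median -0.90) and 1 in that labelled Glut1f/f;Glut3f/+ (median -0.59), against medians of -0.02 and 0.01 in other Col2a1 cells.

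Of the list of Bmp and Tgfb ligands, receptors, antagonists and targets, 10 of 23 genes were at least 2-fold lower in the library labelled DCKO and 2, among them Bmp6, higher (median -0.92, and -0.28 in other Col2a1 cells). Id1, a direct Bmp target, stood at 649.7, 707, 379 and 135 CPM, and the feedback inhibitors Smad7 and Smad6 at 301, 362, 205 and 89.8 CPM and 20.8, 23.4, 12.4 and 5.42 CPM. The ligand Bmp7 stood at 51.3, 33.4, 23.8 and 9.76 CPM. In all 4 genes the library labelled Glut1f/f;Glut3f/+ lay between the E14.5 control and the library labelled DCKO, and in it 0 of 23 genes of the list were 2-fold lower (median -0.18). Of the chondrocyte factors 4 of 8 were lower in the library labelled DCKO (median -0.996, and -0.42 in other Col2a1 cells). Sox9, the factor that maintains chondrocyte fate, stood at 485, 555, 399 and 225 CPM. Hedgehog loop genes were lower in 3 of 12 there (median -0.41) and in none of 13 in the library labelled Glut1f/f;Glut3f/+ (median -0.01); the response gene Gli1 stood at 20.7, 15.0, 13.2 and 9.11 CPM, with Ihh at 482, 183, 198 and 189.7 CPM.

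The hypertrophic program did not move as 1 group. Of its genes in the library labelled Glut1f/f;Glut3f/+, 3 of 18 were higher (Ibsp, Alpl and Bmp6) and none lower, with a median of 0.26, and in members with Ihh and no Col10a1 the median was -0.10. In the library labelled DCKO 3 of 18 were higher, again Ibsp, Alpl and Bmp6, and 3 lower (Spp1, Runx3 and Dlx5), with a median of -0.19, equal to that of all genes. Most Ibsp UMIs lay in 6 members of the library labelled Glut1f/f;Glut3f/+ and 3 of that labelled DCKO. Alpl stood at 8.90, 1.95, 12.4 and 5.75 CPM and Bmp6 at 13.53, 5.86, 13.001 and 12.9 CPM; in both, the E14.5 control was the lowest library. Smpd3 had log2 ratios of 0.69 and -0.03, Pth1r of 0.70 and 0.66, and Scin of 0.00 and -0.17, all within 2-fold. Osteogenic genes, which share Ibsp, Alpl, Spp1, Runx2 and Sp7 with the program, were higher in 3 of 8 and 2 of 8 (medians 0.54 and -0.51), with 0 and 1 lower, and mineral and phosphate genes in 2 of 9 and 3 of 9 (medians 0.51, which turned to -0.13 in members with Ihh and no Col10a1, and -0.14), with 0 and 2 lower. Without members with 10 or more Ibsp UMIs, the osteogenic medians were 0.20 and -0.58 and the mineral and phosphate medians 0.28 and -0.15. The lower genes of the library labelled DCKO were Spp1 (-2.23), in both lists, and Mgp, an inhibitor of mineralization, at 564, 1056, 711 and 376 CPM (-1.49).

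Apart from Slc2a1, given above, few genes of sugar metabolism were 2-fold different. Glycolytic enzymes had 1 of 16 higher and 1 of 16 higher in the libraries labelled Glut1f/f;Glut3f/+ and DCKO (medians 0.16 and 0.07), beside all-gene medians of -0.06 and -0.19. Glucose transporters had 1 of 4 and 1 of 4 higher, in each case Slc2a1 (medians 0.47, which turned to -0.17 with cells of 4000 to 20000 UMIs only, and 0.28). Hypoxia genes were higher in 2 of 20 and 4 of 20 (medians 0.28, which turned to -0.079 in members with a Col10a1 UMI, and 0.38), with 2 lower in the library labelled DCKO, Bhlhe40 and Car12. Of 13 mitochondrial genome genes 4, all of complex I, were lower in the library labelled DCKO (median -0.76) and none in that labelled Glut1f/f;Glut3f/+ (median -0.04). Cartilage matrix genes had 2 of 20 and 5 of 20 lower and none higher (medians -0.26 and -0.46), and Col2a1 stood at 5114, 8470, 8559 and 6762 CPM. No fibroblast gene of 6 passed in the library labelled DCKO (median -0.53, which turned to 0.28 in members with a Col10a1 UMI).

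**Figure D4:**
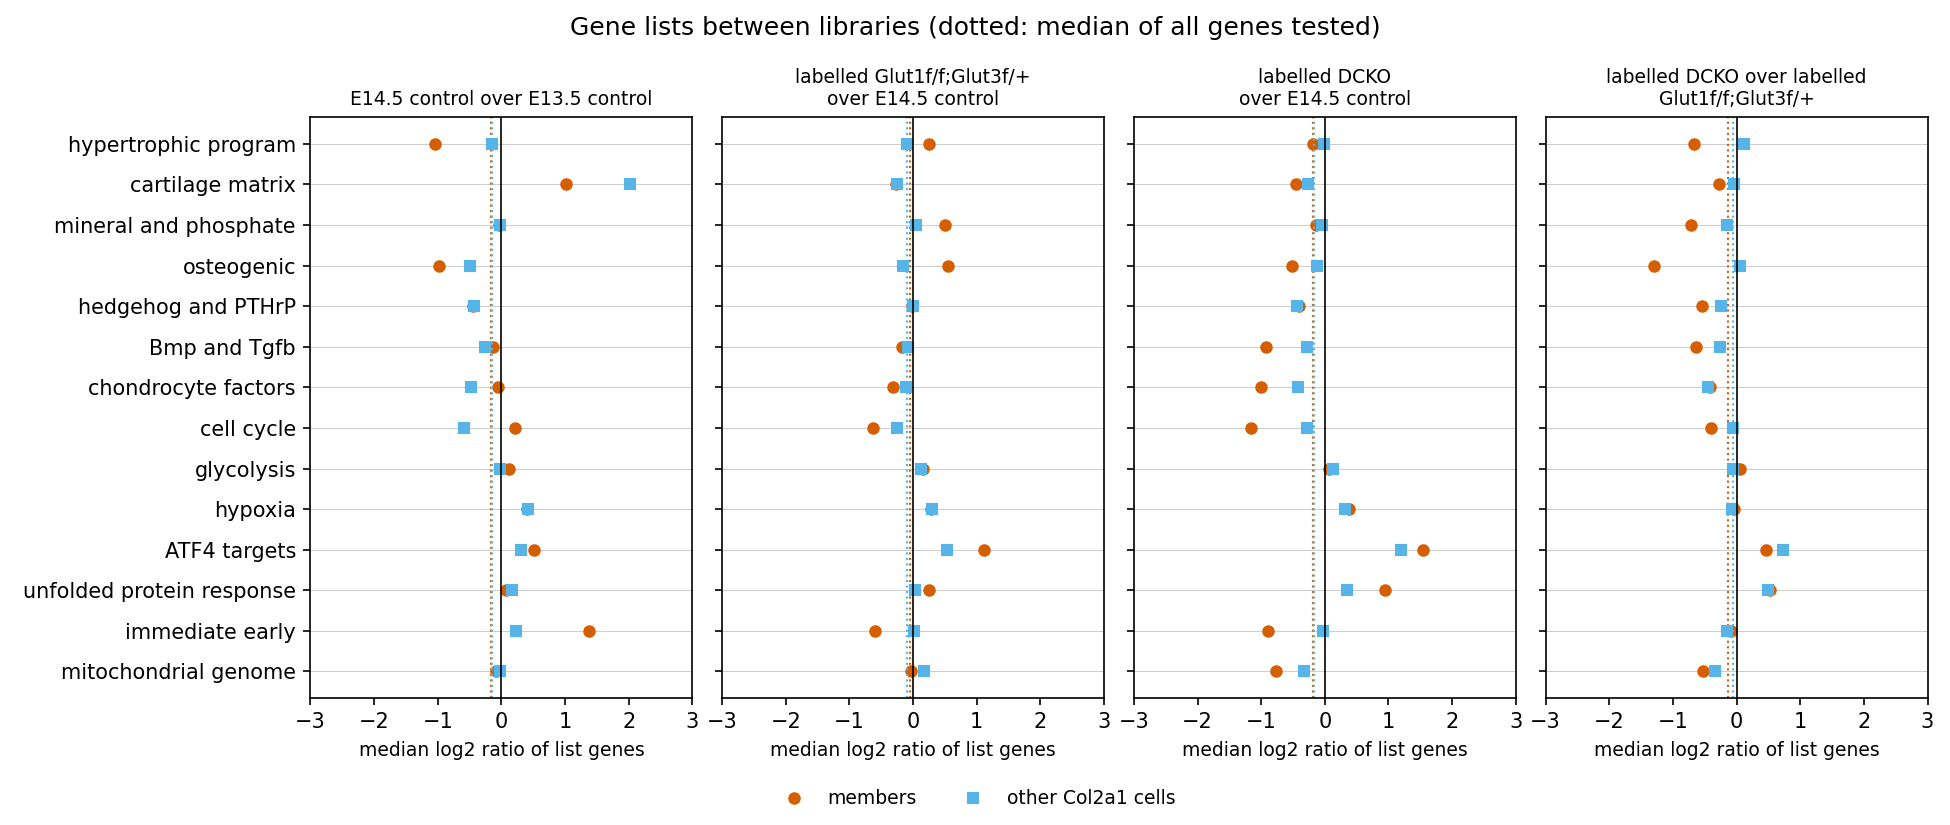
Median log2 ratio of the tested genes of 14 lists (horizontal axes) for 4 comparisons between libraries, in members (circles) and other Col2a1 cells (squares); dotted lines give the median of all genes tested. ATF4 targets lie to the right in both libraries labelled as mutant, at 1.11 and 1.54 in members, and cell cycle genes to the left, at -0.63 and -1.15.

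The libraries labelled DCKO and Glut1f/f;Glut3f/+, which by label differ in 1 Glut3 allele, were compared directly. At least 2-fold higher in the library labelled DCKO were 72 of 10212 tested genes (0.705%), and 272 (2.66%) were lower. The median of all genes was -0.13, or 0.01 under TMM scaling, with 93 genes then higher and 167 lower. Osteogenic genes were lower in 6 of 8 (median -1.29, and 0.05 in other Col2a1 cells), the hypertrophic program in 5 of 19 (median -0.67, and 0.11), and mineral and phosphate genes in 3 of 9 (median -0.72). Without the members with 10 or more Ibsp UMIs these medians were -0.74, -0.30 and -0.32, and the log2 ratio of Ibsp, -4.16 with them, was -0.25. Ifitm5 stood at 119, 20.1, 77.1 and 11.4 CPM (-2.75), with 375 of the 652 UMIs of the library labelled Glut1f/f;Glut3f/+ in its 6 members with 10 or more Ibsp UMIs; the ratio was -1.75 without such members and -0.78 in members with Ihh and no Col10a1. Spp1 stood at 15.0, 91.2, 129.5 and 19.4 CPM (-2.73), lower at every Col10a1 step in the library labelled DCKO than in that labelled Glut1f/f;Glut3f/+. The Notch target Hes1 stood at 171, 271, 228 and 40.3 CPM (-2.50) and the stress gene Gadd45b at 447, 647, 253 and 58.6 CPM (-2.11), each lowest in the library labelled DCKO. Bmp and Tgfb genes were lower in 7 of 23 (median -0.64), hedgehog loop genes in 3 of 13 (median -0.54).

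On the higher side, Derl3, which acts in the degradation of misfolded proteins, stood at 3.47, 0.390, 18.9 and 78.8 CPM, from 30, 2, 160 and 727 UMIs, a log2 ratio of 2.06 between the libraries labelled DCKO and Glut1f/f;Glut3f/+. AI506816 stood at 97.2, 115, 16.5 and 105 CPM (2.66), so here the library labelled Glut1f/f;Glut3f/+ was low beside the 3 others. Tnni1 (1.48), Cdk2ap2, which binds a cell cycle kinase (1.60), and the phospholipase gene Pla2g12a (1.35) were the other named rises. ATF4 targets were higher in 3 of 18 (median 0.47, and 0.73 in other Col2a1 cells) and unfolded protein response genes in 2 of 18 (median 0.52, and 0.49).

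Markers of other cell types were looked for in the members. Globin genes took 0.232, 0.00430, 0.280 and 0.0852% of member UMIs, of which 97.0, 99.0 and 98.5% lay in 4, 3 and 1 cells with 100 or more globin UMIs in the E13.5 control and the libraries labelled Glut1f/f;Glut3f/+ and DCKO; the E14.5 control had no such cell, and the threshold was chosen after the values were seen. The 7 erythroid genes summed to 2229, 42.0, 2650.4 and 853 CPM in members and 1577, 1914, 1392 and 395 CPM in other Col2a1 cells, with Alas2 at 0 in the E14.5 control; Hbb-y was the most abundant in the E13.5 control and the library labelled Glut1f/f;Glut3f/+, and Hbb-bs in the others. Their median log2 ratios of members to other Col2a1 cells were 0.38, -5.35, 0.73 and 1.23; with cells of 4000 to 20000 UMIs only, those of the E13.5 control and the library labelled DCKO turned to -0.24 and -4.57. The 7 muscle genes summed to 105, 3.51, 16.9 and 0.868 CPM (other Col2a1 cells 83.9, 26.8, 47.6 and 5.77), led by Actc1 in the E13.5 control and the library labelled Glut1f/f;Glut3f/+; of the 7, Actc1 and Mymk were at 0 in the E14.5 control, and Actc1, Myod1 and Pax7 in the library labelled DCKO. The 5 endothelial genes summed to 1.85, 1.56, 3.07 and 2.06 CPM (other Col2a1 cells 9.84, 2.66, 8.08 and 6.72), led by Pecam1 in every library, with Cdh5, Emcn and Tie1 at 0 in the E14.5 control, Cdh5 and Kdr in the library labelled Glut1f/f;Glut3f/+, and Tie1 in that labelled DCKO. The 6 macrophage genes summed to 4.86, 11.1, 12.2 and 7.05 CPM (other Col2a1 cells 17.4, 12.2, 6.92 and 9.70), led by C1qc, with C1qb at 0 in all libraries but that labelled Glut1f/f;Glut3f/+, Csf1r in the E13.5 control, and C1qa and Tyrobp in the E14.5 control. Their medians of tested genes were -2.47, -3.83, 0.08 and -2.25, or -1.24 and -2.205 in the E14.5 control and the library labelled DCKO with genes at 0 set to their bounds; with cells of 4000 to 20000 UMIs only, that of the E14.5 control turned to 1.004. Glial and neuronal genes had medians of 0.12, -0.69, 0.04 and -0.15, and Tubb3 was at 0 in the E14.5 control. The muscle, endothelial and macrophage lists thus each summed to 105 CPM or less in the members of every library. Members with 3 or more UMIs of such lineage markers numbered 80, 18, 87 and 64, and the part of these cells in the results was not tested beyond leaving them out, after which all 72 named ratios were still at least 2-fold.

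Promoter sequences, 250 bases before to 50 bases after the start of a transcript, were taken from RefSeq (GRCm38.p6) for the 5 markers and the 20 genes named as higher or lower than in other Col2a1 cells. Entries were found for 16 of these 24 genes; Panx3, Smpd3, Prkg2, Snorc, Scd1, Comp, Boc and Nfib had none. Both strands were searched for the letters TGTGGT (RUNX), TGTTTAC (FOX), ACGTG (HIF) and GGGTGGTC (GLI), which 16.8%, 3.65%, 19.6% and 0.807% of all 32851 promoters hold. Of the 13 promoters of the higher genes 3 held the RUNX letters, 1 the FOX letters and 3 the HIF letters; of the 12 of the lower genes 1 held the RUNX letters and 2 the HIF letters; GLI letters were in none. The promoters are not separate cases: the HIF and FOX matches of the higher genes are all of Sgms2, and the RUNX matches are of 1 promoter of Sgms2 and of 2 overlapping ones of Tnni1 with the same sites. A match is a description of the letters only. The promoters of 3 markers are shown because these genes name the cell type; they hold none of the 4 motifs and so no capitals. That of Tnni1, with the RUNX letters at positions 114 and 282 in capitals, and 1 of the 6 of Sgms2, with the HIF letters, which overlap on both strands, in capitals, were picked after the search to show matches. They lie at chr1:74951623-74951922, minus strand; chr10:34389731-34390030, plus strand; chr12:40134179-40134478, minus strand; chr1:135799171-135799470, plus strand; and chr3:131488993-131489292, minus strand.
Ihh: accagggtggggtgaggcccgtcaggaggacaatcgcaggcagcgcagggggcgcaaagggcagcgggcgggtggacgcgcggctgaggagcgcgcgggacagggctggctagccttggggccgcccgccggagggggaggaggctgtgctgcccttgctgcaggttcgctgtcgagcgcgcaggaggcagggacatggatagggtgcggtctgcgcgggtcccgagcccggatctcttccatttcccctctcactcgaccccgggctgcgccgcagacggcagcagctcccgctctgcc
Col10a1: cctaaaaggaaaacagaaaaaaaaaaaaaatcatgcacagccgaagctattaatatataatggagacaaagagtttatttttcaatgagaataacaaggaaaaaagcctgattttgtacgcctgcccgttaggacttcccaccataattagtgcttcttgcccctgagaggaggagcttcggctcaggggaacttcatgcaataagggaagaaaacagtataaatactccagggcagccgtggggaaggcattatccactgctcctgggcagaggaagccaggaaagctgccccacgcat
Scin: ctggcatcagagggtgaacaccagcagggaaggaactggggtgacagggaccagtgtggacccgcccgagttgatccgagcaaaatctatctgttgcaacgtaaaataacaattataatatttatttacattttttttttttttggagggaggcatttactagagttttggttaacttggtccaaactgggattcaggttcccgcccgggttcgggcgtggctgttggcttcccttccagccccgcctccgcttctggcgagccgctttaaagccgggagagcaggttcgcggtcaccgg
Tnni1: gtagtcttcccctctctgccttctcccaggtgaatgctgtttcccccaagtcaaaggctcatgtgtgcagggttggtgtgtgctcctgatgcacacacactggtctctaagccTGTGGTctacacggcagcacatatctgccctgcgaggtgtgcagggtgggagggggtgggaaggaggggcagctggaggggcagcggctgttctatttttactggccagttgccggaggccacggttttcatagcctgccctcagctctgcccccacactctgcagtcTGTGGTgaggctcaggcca
Sgms2: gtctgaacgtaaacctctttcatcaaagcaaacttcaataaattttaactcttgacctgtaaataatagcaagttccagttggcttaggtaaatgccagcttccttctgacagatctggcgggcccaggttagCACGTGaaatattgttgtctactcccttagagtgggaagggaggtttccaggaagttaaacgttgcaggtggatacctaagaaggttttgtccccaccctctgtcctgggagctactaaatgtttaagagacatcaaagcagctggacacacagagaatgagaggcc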

How the data were processed

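Single-cell RNA was measured in 4 libraries of mouse presumptive knee joint cells, 1 per condition. The authors deposited UMI counts per barcode and gene, made with Cell Ranger (version 6.1.2 per the file headers) on mm10; their processing notes also name Seurat 3, whose output was not used here. The files hold 32285 genes, of which 99.8% of identifiers are in GENCODE M21.

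From the deposited counts, cells with 200 to 6000 genes and at most 10% of UMIs from mt- genes were kept, and members were chosen by the stated rule. The members and the gene lists were chosen with earlier results of these data known. Doublets were kept. The upper limit of 6000 genes removed 15, 12, 15 and 6 cells that passed the rule.

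For each group of cells in a library the UMIs of a gene were added up and scaled to CPM. Log2 ratios carry a prior count of 0.5, and a gene was counted as different at 2-fold or more when the sums compared held 50 or more UMIs together. Intervals are exact Poisson, Clopper-Pearson or exact conditional ones at 95%. With 1 library per condition no test between conditions was possible. Shares at equal depth are exact hypergeometric expectations for 3000 UMIs per cell. Scripts were tested on simulated data.

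Named genes are the rule genes, Smpd3, Scin, Slc2a1, Slc2a3 and those ranked as follows. For members over other Col2a1 cells they are the 10 with the highest lowest ratio over the 4 libraries and the 10 with the lowest highest ratio, at 30 CPM or more in the higher group of every library. Between the controls, and between the libraries labelled as mutant, they are the 5 largest rises and 5 largest falls at 50 CPM or more in the higher group. For the libraries labelled as mutant over the E14.5 control they are the 8 largest rises and 8 largest falls by the smaller of a gene's ratios, at 50 CPM or more in the higher group of each comparison. Rule genes, sex-linked genes, globin and mt- genes were left out of these ranks. Genes of the 23 lists could also be named, among them the markers of other cell types; results of each list are in the report, and some of their genes are not reported here.

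Alternatives were TMM factors, the mean over cells, other UMI minimums and priors, stricter and looser rules and filters, depth limits, and subsets of members; leaving out members with 10 or more Ibsp UMIs, choosing members after 1 draw of 3000 UMIs, using E13.5 members with Y-linked UMIs only, and comparing with matrix-rich cells were chosen after seeing the data. Python 3.11.15, numpy 2.4.6, scipy 1.17.1, pandas 2.3.3, matplotlib 3.10.9, R 4.3.3 and edgeR 4.0.16 (TMM) were used.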

Additional observations from a re-analysis of the deposited data

How the results depend on the processing

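Shares of kept cells moved beyond their intervals in 24 of 36 values, given in the report's order. They were 8.44, 6.87, 7.46 and 9.68% with 1 UMI of the rule genes as the minimum, and 4.68, 2.10, 2.85 and 3.35% with 3. Thinned to 3000 UMIs per cell they were 3.57, 0.908, 1.53 and 1.63%. Among Col2a1 cells they were 12.4, 4.24, 6.35 and 6.44%. Without the 5% of cells with most UMIs they were 5.05, 1.78, 2.51 and 3.49%. With 1000 to 6000 genes and at most 5% mitochondrial UMIs the E13.5 control had 6.43%, the library labelled Glut1f/f;Glut3f/+ 4.496% and that labelled DCKO 5.39%; without cells with lineage markers the library labelled Glut1f/f;Glut3f/+ had 3.61%. A looser or stricter rule by its construction takes more or fewer cells, and the cause of the other moves was not tested. The E14.5 control had the smallest share under every setting.

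Counts of genes past 2-fold moved by over 1.5 times in 30 of 116 values. With a minimum of 20 UMIs, which tests more genes, 1136 were lower in the E14.5 than in the E13.5 control. In the library labelled Glut1f/f;Glut3f/+ 426 were then higher and 225 lower than in the E14.5 control, and in that labelled DCKO 458 and 865. Between the libraries labelled DCKO and Glut1f/f;Glut3f/+ there were 133 and 530. With 200 UMIs, which tests fewer, the pairs in the same order were 119 and 244, 73 and 34, 125 and 235, and 29 and 81, and 102 and 370 in members over other Col2a1 cells in each library. In members with a Col10a1 UMI 125 were higher and 313 lower between the controls, 273 lower in the library labelled DCKO, and 36 higher in it than in that labelled Glut1f/f;Glut3f/+. With Y-linked E13.5 members 390 were lower at E14.5 and 291 higher, against 690 and 250 as reported. Members chosen after 1 draw of 3000 UMIs gave 174 higher and 371 lower in the library labelled DCKO, and 41 higher than in that labelled Glut1f/f;Glut3f/+. TMM gave 357 and 167 lower genes in these comparisons, and cells of 4000 to 20000 UMIs 44 higher in the latter. Against other Col2a1 cells 341 were lower with a prior of 5, and 163 against matrix-rich cells. The cause was not tested beyond the numbers of cells and genes that each setting leaves.

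List medians changed sign in 94 of 1658 values. In 13 the reported median lay 0.3 or more from that of all genes, a margin fixed after a first run of the alternatives, and these are called turned and given below. The other 81, nearer that median, include cell cycle genes in members over other Col2a1 cells of the E14.5 control, at -0.75 with cells of 4000 to 20000 UMIs. Of the values not turned, 638 moved by over 0.1 on the log2 scale and 1007 did not. With cells of 4000 to 20000 UMIs cell cycle genes between the controls turned from 0.22 to -0.34 and glucose transporters in the library labelled Glut1f/f;Glut3f/+ to -0.17. In members over other Col2a1 cells, erythroid genes then turned to -0.24 in the E13.5 control and -4.57 in the library labelled DCKO, glycolysis there to -0.034, and macrophage genes in the E14.5 control to 1.004. ATF4 targets between the controls turned from 0.51 to -0.035 after 1 draw of 3000 UMIs, and interzone genes to 0.28 with Y-linked members. In the library labelled Glut1f/f;Glut3f/+ the hypertrophic program turned to -0.10 and mineral genes to -0.13 in members with Ihh and no Col10a1, and hypoxia genes to -0.079 in members with Col10a1. Fibroblast genes in that labelled DCKO turned from -0.53 to 0.28 with Col10a1, and osteogenic genes of E14.5 control members to 0.26 against matrix-rich cells. The cause was not tested.

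No named ratio changed direction in 805 values, of which 222 moved outside their counting interval or, for ratios to other Col2a1 cells, by over 0.1. All 72 were still past 2-fold under TMM, the mean over cells, 3 rule UMIs, each UMI minimum, a prior of 5 and without lineage cells, and 71 with 4000 to 20000 UMIs, where Hist1h1b in the library labelled Glut1f/f;Glut3f/+ was at -0.88. Of 20, 18 were so against matrix-rich cells, 51 of 52 without Ibsp cells, and 50 of 51 with Ihh and no Col10a1.

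The limits are those of 1 library per condition: no spread between embryos is known, sex cannot be told apart from genotype at E14.5, and the E14.5 control, with 272 members, enters 3 of the 4 comparisons between libraries. Depth limits genes such as Slc2a3 and Mmp13, whose UMIs were few, and free RNA was not removed.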

Other observations

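C1qc, a complement subunit of macrophages, was higher in members than in other Col2a1 cells. It stood at 3.70, 8.79, 8.75 and 4.88 CPM in members and 1.02, 3.03, 2.18 and 2.53 CPM in other Col2a1 cells. The macrophage list did not share this as a whole: C1qb was at 0 in the members of 3 libraries and the list summed to 4.86, 11.1, 12.2 and 7.05 CPM in members against 17.4, 12.2, 6.92 and 9.70 CPM. Its median in the E14.5 control, -3.83, turned to 1.004 with cells of 4000 to 20000 UMIs only.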
